A study of Mus musculus with 16 samples.

Results

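The transcripts described here are those of 8 killer lectin-like receptors, Klrg1, Klrd1, Klrk1, Klrc1, Klrc2, Klre1, Klrb1c and Klra7. They were taken by symbol from the 34573 rows of a table of gene counts, and all 8 symbols were found. RNA-seq was made from C57BL/6 mouse CD8+ T cells in 4 states, with 3 numbered libraries per state and 0.2 M cells per library. Tn cells came from spleen at day 0 and were sorted as CD8+ CD44- CD62L+, the surface type of naive cells. The other states followed stimulation of isolated naive cells with antibodies to CD3e and CD28 at 10 µg/ml each, with IL-2 at 300 U/ml added after a night. Teff1 cells (day 2) and Teff2 cells (day 5) were sorted as PD-1+ TIM-3-, and Tex cells (day 5) as PD-1+ TIM-3+. Whether the 3 libraries of a state come from different mice or cultures is not labelled, so p-values below reflect the spread among these libraries alone, and that spread may be technical. In such bulk samples, fewer cells of a type and less RNA per cell cannot be told apart.

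Killer lectin-like receptors are type II membrane proteins with a C-type lectin-like domain, encoded in the natural killer gene complex of chromosome 6 and best known from NK cells. Many are also made by CD8 T cells after activation or in memory. CD94 (Klrd1) pairs with NKG2A (Klrc1), which carries inhibitory motifs, or with the activating chains NKG2C (Klrc2) and NKG2E (Klrc3), and these pairs bind the nonclassical class I molecule Qa-1. NKG2D (Klrk1) is an activating receptor for stress-induced ligands and signals through the adaptor DAP10. KLRE1 pairs with KLRI proteins, KLRG1 is an inhibitory receptor for cadherins, NK1.1 (Klrb1c) defines NK cells in C57BL/6 mice, and Ly49G (Klra7) binds classical class I molecules.

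On assembly GRCm38.p6 (mm10), 7 of the 8 genes lie within a 2.64 Mb stretch of chromosome 6 from 128609227 to 131247716. In order they are Klrb1c (128778485 to 128788641), Klre1 (129559365 to 129585828), Klrd1 (129588092 to 129598775), Klrk1 (129610323 to 129623903), Klrc2 (129649602 to 129660737), Klrc1 (129666015 to 129682852) and Klra7 (130218605 to 130233322). Klrg1 lies apart on the same chromosome, from 122270596 to 122282833. All are annotated as protein-coding.

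The libraries held 14.7 to 21.2 M counts, and a limit of 3 counts, the most that an observed 0 allows, corresponds to 0.143 to 0.204 CPM (counts per M counts) per library, for counting error only. CPM below are scaled by TMM factors and are not corrected for gene length, so levels are compared between libraries of 1 gene and not between genes. All 8 receptors passed the filter on low counts. Summed markers of CD8 T cells (Cd3d, Cd3e, Cd3g, Cd8a, Cd8b1 and Trac) stood at 2040 to 4250 CPM in the 12 libraries. Markers of NK cells other than killer lectin genes, 10 of 11 found, were uneven among the Tn libraries and summed to 169, 23.8 and 259 CPM in replicates 1, 2 and 3. Ncr1, the NK cell-defining receptor NKp46, had 186, 5 and 574 counts there. B cell markers (432, 36.6 and 842 CPM) and macrophage and monocyte markers (242, 57.3 and 122 CPM) were lowest in the same library. So were all 8 markers of memory-phenotype CD8 T cells, which summed to 656, 393 and 706 CPM, with Cd44 at 36.3, 6.33 and 32.3 CPM although the sort was for CD44- cells.

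The 8 receptors split into those that Tn replicate 2 held and those that it nearly lacked. Its Klrd1 level was 121% of the mean of Tn replicates 1 and 3, and its Klrk1 level was 88.5%. For the other 6 receptors the value was 7.35% (Klrb1c), 4.39% (Klrc1), 2.92% (Klre1), 2.55% (Klrg1), 1.97% (Klra7) and 1.96% (Klrc2). The 9 NK cell markers with counts in Tn lay at 0% to 72.1% with a median of 1.70%, the memory-phenotype markers at 10.2% to 81.6% with a median of 53.2%, and the CD8 T cell markers at 125% to 166%. Among the 22 other killer lectin genes, 21 were lowest in Tn replicate 2, with a median of 5.55%. The part of the NK cell and memory-phenotype markers in any comparison with Tn was not tested, and comparisons are given below also with Tn replicate 2 as the only Tn library, a fit in which that lone sample is assumed to vary like the other groups.

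**Figure D1:**
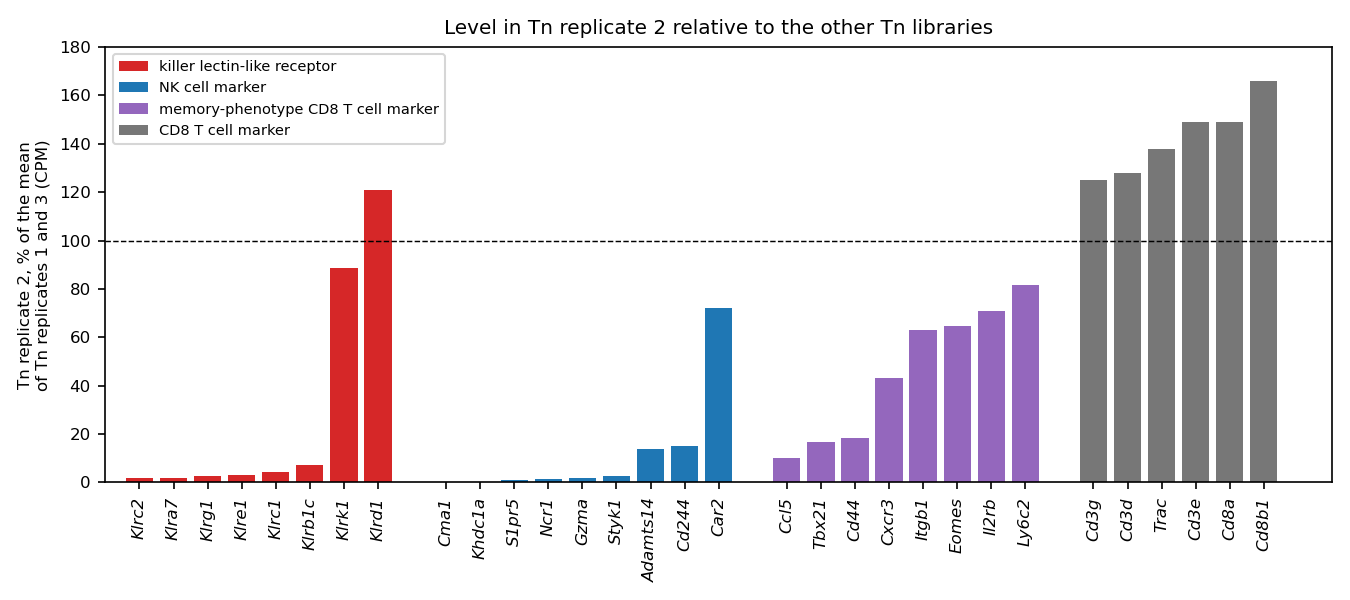
Bars show the CPM in Tn replicate 2 as a percent of the mean CPM of Tn replicates 1 and 3, for the 8 receptors and 3 marker lists; the dashed line marks 100%. Klrd1 (121%) and Klrk1 (88.5%) stand highest of the receptors, and the other 6 stand at 1.96% to 7.35%.

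In Teff1 against Tn, 6 of the 8 receptors were called, 2 higher and 4 lower. Calls were made by edgeR's quasi-likelihood test at a Benjamini-Hochberg adjusted p under 0.05. Of the 14332 genes tested, 48.9% were called in this comparison (24.5% higher, 24.5% lower). The median log2 fold change was -2.62 over the 8 receptors and -0.06 over all tested genes. When Tn replicate 2 was the only Tn library, 3 receptors were called (Klrc1 and Klrc2 higher, Klrd1 lower), beside 20% of tested genes (9.96% higher, 10% lower). At day 5 against Tn, Teff2 and Tex each had 4 receptors called, with Klrk1 and Klrc1 higher and Klrg1 and Klrb1c lower in both, and these comparisons share the Tn libraries. Of all tested genes, 48.9% were called in Teff2 (25.6% higher, 23.3% lower) and 52.9% in Tex (27.3% higher, 25.6% lower), so the receptors' share of 4 in 8 was near the background. The receptors' medians were -0.42 and -0.24, against 0.00 over all tested genes. Against Tn replicate 2 alone, the 4 called in each were instead Klrk1, Klrc1, Klrc2 and Klre1, all higher. In those fits 22.1% of tested genes were called in Teff2 (11.3% higher, 10.8% lower) and 26.2% in Tex (13.1% higher, 13.1% lower).

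**Figure D2:**
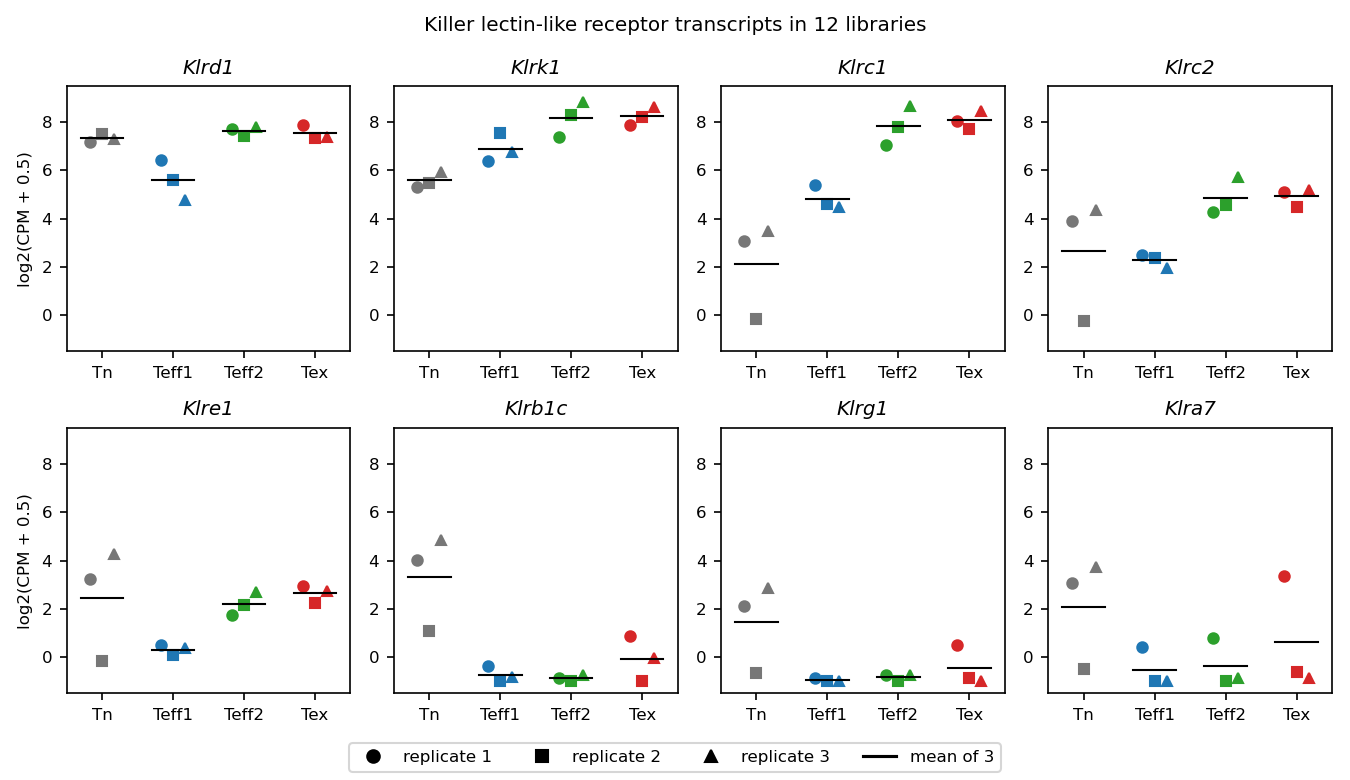
Each point is 1 library, on the scale log2(CPM + 0.5), by state and replicate, with bars at the mean of 3. Klrd1 dips in Teff1, Klrk1 and Klrc1 are higher in every Teff1, Teff2 and Tex library than in any Tn library, and Klrb1c, Klrg1 and Klra7 are high mainly in Tn replicates 1 and 3 (with Klra7 also high in Tex replicate 1).

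Klrd1, the CD94 chain shared by the NKG2A, NKG2C and NKG2E receptors, was present in every library. Its level was 144, 183 and 159 CPM in Tn, 86.5, 48.2 and 26.7 CPM in Teff1, 210, 170 and 223 CPM in Teff2 and 234, 162 and 169 CPM in Tex. All 3 Teff1 libraries lay below all 9 others, and the Tn, Teff2 and Tex libraries overlapped. Klrd1 fell in Teff1 to 53.8 ± 30.3 CPM, from 162 ± 19.8 CPM in Tn (SD, n = 3 each; log2 fold change -1.59, SE 0.33, edgeR adjusted p = 0.00235). It kept that call with Tn replicate 2 alone (-1.78, edgeR adjusted p = 0.0266). From day 2 to day 5 Klrd1 rose to 201 ± 27.9 CPM in Teff2 (SD, n = 3), 3.74-fold over Teff1 (log2 fold change 1.90, SE 0.34, edgeR adjusted p = 0.0297). The median log2 difference of the 8 receptors was 1.82 here and 2.88 for Tex over Teff1, against -0.00 and -0.01 over all tested genes. Both medians include Klrg1, Klrb1c and Klra7, which had few counts in most of these libraries. Klrd1 was the only receptor called between Teff2 and Teff1, where 0.67% of tested genes were called (0.558% higher, 0.112% lower).

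Against Tn, the day 5 levels of Klrd1 differed by log2 0.31 (SE 0.33, edgeR adjusted p = 0.45) in Teff2 and 0.22 (SE 0.33, edgeR adjusted p = 0.594) in Tex, neither past the threshold. The day 2 to day 5 call was lost without Teff1 replicate 2 (edgeR adjusted p = 0.149), Teff1 replicate 3 (0.0601) or Teff2 replicate 3 (0.126), and with only the 6 libraries compared (0.103), with log2 fold changes of 1.58 to 1.91. Against Teff1, Tex was 3.50-fold higher in Klrd1 (log2 fold change 1.81, SE 0.34, edgeR adjusted p = 0.0168), a call lost without Teff1 replicate 2 (edgeR adjusted p = 0.0852) and with only the 6 libraries compared (0.0568). In that comparison 2 receptors were called, both higher (Klrd1 and Klrc1), beside 3.01% of tested genes (2.16% higher, 0.851% lower).

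Klrk1, the activating receptor NKG2D, was higher in every later state than in Tn. The Tn libraries had 39.6, 44.4 and 60.8 CPM, Teff1 84.4, 185 and 107 CPM, Teff2 168, 313 and 454 CPM, and Tex 236, 299 and 391 CPM. Every library after activation lay above every Tn library, and Teff1 replicate 2 reached into the range of Teff2. Against Tn, Klrk1 was 2.60-fold higher in Teff1 (log2 fold change 1.38, SE 0.37, edgeR adjusted p = 0.00959) and 6.46-fold higher in Teff2 (2.69, SE 0.39, edgeR adjusted p = 0.000222). Tex stood 6.39-fold over Tn (2.68, SE 0.39, edgeR adjusted p = 0.000195). Set against Tn replicate 2 alone, the day 5 rises were of like size (2.80 and 2.78, edgeR adjusted p = 0.0152 and 0.0135), and the day 2 value was 1.48 (edgeR adjusted p = 0.104).

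Between days 2 and 5 Klrk1 differed 2.48-fold in Teff2 over Teff1 (log2 1.31, SE 0.37), which missed the threshold in the edgeR fit by state (adjusted p = 0.148) and passed it in DESeq2 (adjusted p = 0.028) and in edgeR with a replicate block (adjusted p = 0.0353). For Tex over Teff1 the values did not overlap and the log2 difference was 1.30 (SE 0.37, edgeR adjusted p = 0.088, or 0.0171 with a replicate block, and DESeq2 adjusted p = 0.0177). The transcript of its adaptor moved the other way. Hcst, which encodes DAP10, stood at 54.8, 80.7 and 81.2 CPM in the Tn libraries and at 6.85 to 9.03 CPM in Teff1. Its level was 9.62 to 12.6 CPM in Teff2 and 8.38 to 13.7 CPM in Tex. Hcst fell by 3.13 on the log2 scale in Teff1 against Tn (SE 0.25, edgeR adjusted p = 7.19e-06), by 2.76 in Teff2 (9.94e-06) and by 2.73 in Tex (8.28e-06). Hcst was as high in Tn replicate 2 as in replicate 3, and it was called lower in all 3 comparisons with Tn replicate 2 alone.

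Klrc1, the inhibitory chain NKG2A, had the largest fitted rise of the 8 receptors at day 5 against Tn. Its level was 8.02, 0.409 and 10.6 CPM in Tn, 41.2, 24.1 and 21.7 CPM in Teff1, 131, 225 and 404 CPM in Teff2 and 265, 211 and 352 CPM in Tex. The Tn, Teff1 and day 5 libraries formed 3 ranges that did not overlap, while Teff2 and Tex overlapped. Klrc1 was 4.58-fold higher in Teff1 than in Tn (log2 fold change 2.18, SE 0.71, edgeR adjusted p = 0.0235), a call lost without Teff1 replicate 1 (1.86, edgeR adjusted p = 0.0636). Against Tn it was 40.0-fold higher in Teff2 (5.31, SE 0.80, edgeR adjusted p = 0.000284) and 43.6-fold higher in Tex (5.43, SE 0.80, edgeR adjusted p = 0.000214). Against Tn replicate 2 alone, which had 6 Klrc1 counts, the 3 log2 fold changes were 6.11, 9.24 and 9.36 and all were called (edgeR adjusted p = 0.00301, 0.000513 and 0.000384).

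From Teff1 to day 5, Klrc1 was 9.52-fold higher in Tex (log2 fold change 3.25, SE 0.72, edgeR adjusted p = 0.0334), and this call was lost when any 1 of the 6 libraries was left out (edgeR adjusted p = 0.0558 to 0.142). It was 8.74-fold higher in Teff2 (3.13, SE 0.71), which missed the threshold in the edgeR fit by state (adjusted p = 0.0732). It passed in DESeq2 (adjusted p = 0.0119) and in edgeR without the filter on low counts (0.0228), with a replicate block (0.0358) and with only the 6 libraries compared (0.0396). Of the 8 receptors, 4 were above Teff1 in all Teff2 libraries without overlap (Klrd1, Klrc1, Klrc2 and Klre1) and 5 in all Tex libraries (Klrk1 as well). Across all tested genes, 8.39% and 11.4% had that order.

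Klrc2, the activating chain NKG2C, stood at 14.6, 0.341 and 20.2 CPM in the Tn libraries and at 5.14, 4.71 and 3.33 CPM in those of Teff1. At day 5 it had 18.9, 23 and 53.1 CPM in Teff2 and 34.1, 22.0 and 35.8 CPM in Tex. Tn replicates 1 and 3 lay above all Teff1 libraries and Tn replicate 2 (5 counts) below them. No comparison of Klrc2 passed the edgeR threshold with all 12 libraries. Against Tn the log2 differences were -1.41 in Teff1 (SE 0.83, edgeR adjusted p = 0.173), 1.43 in Teff2 (SE 0.81, edgeR adjusted p = 0.162) and 1.38 in Tex (SE 0.81, edgeR adjusted p = 0.166). The direction at day 2 turned with the Tn libraries: it was 3.65 with Tn replicate 2 alone (edgeR adjusted p = 0.0154) and -1.99 without that library (edgeR adjusted p = 0.00367). At day 5 the values with Tn replicate 2 alone were 6.50 in Teff2 and 6.45 in Tex (edgeR adjusted p = 0.0013 and 0.00118). Day 5 levels were 7.21-fold (Teff2) and 6.98-fold (Tex) those of Teff1 without overlap, and neither was called (edgeR adjusted p = 0.177 and 0.108), although both passed in a fit of only the 6 libraries compared (0.0432 and 0.00461).

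The balance of the NKG2 chains differed between Tn and every later state. Klrc1 made up 31.2% of the 388 Klrc1, Klrc2 and Klrc3 counts in Tn replicate 1 (95% Wilson interval 26.8 to 36.0%), and 31.3% of 630 counts in Tn replicate 3 (27.8 to 35.0%). In Tn replicate 2 the 3 genes had 13 counts, with a Klrc1 share of 46.2% (23.2 to 70.9%). Tn replicates 1 and 3, which held most of these Tn counts, were also higher in NK cell markers. Those markers summed to 169 and 259 CPM there and to 23.8 CPM in Tn replicate 2. Their part in the Klrc1 share of Tn was not tested. After activation the share was 81.6% to 87.7% in Teff1, 86.0% to 89.8% in Teff2 and 87.6% to 89.9% in Tex. The Tn mean of 36.2% ± 8.63 lay below those of Teff1 (85.0% ± 3.10), Teff2 (87.7% ± 1.93) and Tex (89.1% ± 1.27; SD, n = 3 each) without overlap. The interval of each Tn library ended below the lowest later share. The shares are not corrected for gene length, so only their change between libraries is read here.

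**Figure D3:**
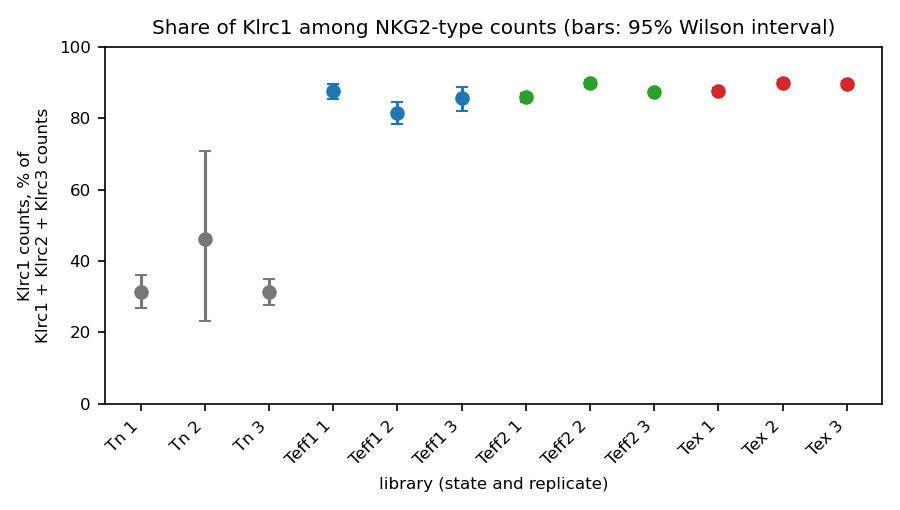
Points show Klrc1 counts as a percent of Klrc1, Klrc2 and Klrc3 counts in each library, with 95% Wilson intervals that cover counting error only. The 3 Tn libraries stand at 31.2% to 46.2% and the 9 later libraries at 81.6% to 89.9%.

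Klrc3 (NKG2E) had 3.12, 0.136 and 3.06 CPM in Tn, 0.303 to 0.713 CPM in Teff1, 2.45 to 5.64 CPM in Teff2 and 1.67 to 4.58 CPM in Tex. Over the 12 libraries on the log2(CPM + 0.5) scale its r with Klrc2 was 0.946, among the 3 highest of any gene with Klrc2, whereas Klrc1 and Klrc2 had r = 0.83. The sequences before their start sites (the second annotated start of Klrc2) are shown because those of Klrc2 and Klrc3 were nearly the same and that of Klrc1 was not. The 250 bases before a start site come from RefSeq on GRCm38.p6, where 6 of the 8 receptors had an entry; Klrd1 and Klrg1 had none. Capitals mark the core of the RUNX motif, TGTGGT or its reverse complement ACCACA. Klrk1 and Klrb1c follow, as a receptor called higher and one called lower against Tn with all 12 libraries. For Klrc1, Klrc2, Klrc3 and Klrk1 the window lies at least partly inside the annotated gene, since longer transcripts start upstream.
Klrc1 (chr6:129678974-129679223, minus strand): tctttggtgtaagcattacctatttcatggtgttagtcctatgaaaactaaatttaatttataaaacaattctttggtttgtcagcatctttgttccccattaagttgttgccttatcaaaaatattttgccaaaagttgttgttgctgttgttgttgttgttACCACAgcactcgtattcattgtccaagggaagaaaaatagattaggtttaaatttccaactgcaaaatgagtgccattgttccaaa
Klrc2 (chr6:129660557-129660806, minus strand): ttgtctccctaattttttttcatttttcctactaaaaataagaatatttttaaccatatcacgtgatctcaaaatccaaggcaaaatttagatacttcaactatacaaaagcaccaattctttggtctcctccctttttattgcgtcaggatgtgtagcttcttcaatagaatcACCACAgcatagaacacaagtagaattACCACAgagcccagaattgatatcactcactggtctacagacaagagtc
Klrc3 (chr6:129643289-129643538, minus strand): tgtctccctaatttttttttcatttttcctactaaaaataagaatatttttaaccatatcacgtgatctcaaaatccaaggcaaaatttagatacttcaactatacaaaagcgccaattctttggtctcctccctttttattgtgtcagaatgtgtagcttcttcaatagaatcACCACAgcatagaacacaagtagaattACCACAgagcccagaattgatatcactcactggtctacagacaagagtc
Klrk1 (chr6:129623865-129624114, minus strand): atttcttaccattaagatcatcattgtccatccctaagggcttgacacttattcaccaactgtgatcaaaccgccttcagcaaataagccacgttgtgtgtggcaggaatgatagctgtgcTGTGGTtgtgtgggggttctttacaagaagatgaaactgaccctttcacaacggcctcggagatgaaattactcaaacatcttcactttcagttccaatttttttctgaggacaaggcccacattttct
Klrb1c (chr6:128788642-128788891, minus strand): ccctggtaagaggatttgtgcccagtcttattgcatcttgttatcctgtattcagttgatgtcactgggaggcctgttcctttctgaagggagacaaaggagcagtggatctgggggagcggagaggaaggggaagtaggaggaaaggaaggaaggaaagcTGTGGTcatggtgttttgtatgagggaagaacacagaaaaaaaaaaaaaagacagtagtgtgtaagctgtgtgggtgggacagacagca

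Of these windows, those of Klrc2 and Klrc3 were identical at 246 of 251 alignment columns (98.0%), and those of Klrc1 and Klrc2 at 46.4%. The 6 receptors with an entry have 9 windows, since Klrc2, Klre1 and Klra7 each have a second start. The windows of Klrc2 overlap each other, as do those of Klre1. A RUNX core stood in 6 of the 9: those of Klrk1, Klrc1 and Klrb1c, both of Klrc2 (2 copies) and the first of Klre1. Both windows of Klrc2 hold the same 2 copies, so these sites enter the count more than once. Neither window of Klra7 held it. It was found on either strand in 14.0% of all 32851 RefSeq windows of this length. The T-box core TCACAC or GTGTGA was found in 1 receptor window (the second start of Klre1) and 12.3% of all windows, and the AP-1 site TGANTCA in none and 6.75%. The core stood before Klrk1 and Klrc1, called higher than in Tn with all 12 libraries, and before Klrb1c, called lower there. Whether it has a part in either was not tested. These matches are letters in a window and no record of binding. Because Klrc2 and Klrc3 are close copies and how reads with several matches were counted is not given in the sources used here, their separate counts are uncertain.

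Klre1, a receptor without a signalling motif of its own that pairs with KLRI1 or KLRI2, had 9.02, 0.409 and 19.0 CPM in Tn. Its level was 0.904, 0.57 and 0.788 CPM in Teff1, 2.86, 3.93 and 6.07 CPM in Teff2 and 7.20, 4.27 and 6.19 CPM in Tex. Tn replicates 1 and 3 lay above every Teff1 library and Tn replicate 2 below them. Klre1 fell in Teff1 against Tn with all libraries (log2 fold change -3.64, SE 0.91, edgeR adjusted p = 0.00616). With Tn replicate 2 alone the value was 0.86 (edgeR adjusted p = 0.384). At day 5 the direction against Tn turned as well. The log2 fold changes were -1.14 in Teff2 and -0.69 in Tex with all libraries (edgeR adjusted p = 0.258 and 0.486). They were 3.36 and 3.81 with Tn replicate 2 alone (0.0102 and 0.00548), and -1.71 and -1.26 without it (0.00834 and 0.0297).

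Comparisons of Klre1 that leave Tn out gave 5.69-fold (Teff2) and 7.80-fold (Tex) higher levels than in Teff1. The libraries did not overlap, and neither comparison was called (edgeR adjusted p = 0.262 and 0.105), while Tex against Teff1 passed in DESeq2 (adjusted p = 0.0076) and in edgeR with only the 6 libraries compared (adjusted p = 0.0126). Klri2, its partner chain, had 8.75, 0.681 and 15.4 CPM in Tn, 2.0 to 3.09 CPM in Teff1, 6.17 to 15.8 CPM in Teff2 and 9.13 to 18.7 CPM in Tex. Tn replicate 2 was the lowest of all 12 libraries for both genes.

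Klrb1c, the NK1.1 antigen, was seen mainly in Tn. It had 235, 24 and 538 counts in Tn (15.6, 1.63 and 28.9 CPM), 6, 0 and 1 in Teff1, 1, 0 and 2 in Teff2 and 24, 0 and 9 in Tex. In CPM all Tn libraries lay above all later ones, the nearest being Tex replicate 1 at 1.32 CPM. Klrb1c fell in Teff1 to 0.115 ± 0.150 CPM, from 15.4 ± 13.6 CPM in Tn (SD, n = 3 each; log2 fold change -6.94, SE 1.39, edgeR adjusted p = 0.00175). Against the 3 counts of Teff2, Tn was 295-fold higher (95% counting interval 101 to 1430, edgeR adjusted p = 0.0013). Tex was 25.8-fold below Tn in mean CPM (log2 fold change -4.68, SE 1.19, edgeR adjusted p = 0.00604). Measured against Tn replicate 2 alone, the values were -3.73, -4.74 and -1.47, and none was called (edgeR adjusted p = 0.116, 0.0704 and 0.489).

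Klrg1, known from terminally differentiated effector T cells and mature NK cells, was also a transcript of Tn replicates 1 and 3. Its counts were 58, 2 and 127 in Tn, 1, 0 and 0 in Teff1, 2, 0 and 2 in Teff2 and 17, 1 and 0 in Tex. In Teff1, Teff2 and 2 of the 3 Tex libraries it was at or under the limit of 3 counts, so no level could be set there. Tn was 226-fold above the 1 count of Teff1 (95% counting interval 40.1 to 8990, edgeR adjusted p = 0.00543), and the log2 fold change was -5.50 in Teff2 (SE 1.51, edgeR adjusted p = 0.0104) and -3.44 in Tex (SE 1.28, edgeR adjusted p = 0.0386). The Tex call was lost without Tn replicate 1 (0.0742), Tn replicate 3 (0.15), Tex replicate 2 (0.118) or Tex replicate 3 (0.104), and with only the 6 libraries compared (0.0726). None of the 3 was called with Tn replicate 2 alone, at -2.60, -0.85 and 1.20 (edgeR adjusted p = 0.474, 0.811 and 0.694).

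Beside these falls, the summed NK cell markers, at 23.8 to 259 CPM in the Tn libraries, were 3.57 to 4.0 CPM in Teff1, 23.7 to 44.9 CPM in Teff2 and 73.4 to 95.1 CPM in Tex. The later sums held few defining markers. Ncr1 had 0 counts in 7 of the 9 later libraries, with 4 in Teff1 replicate 1 and 11 in Tex replicate 1. Most of the Tex sum was Adamts14 (34.9, 70.3 and 88.2 CPM) and, in replicate 1, Styk1 (37.6 CPM). B cell markers summed to 5.56 to 10.1 CPM in the later libraries. Memory-phenotype CD8 markers summed to 746 to 1480 CPM.

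**Figure D4:**
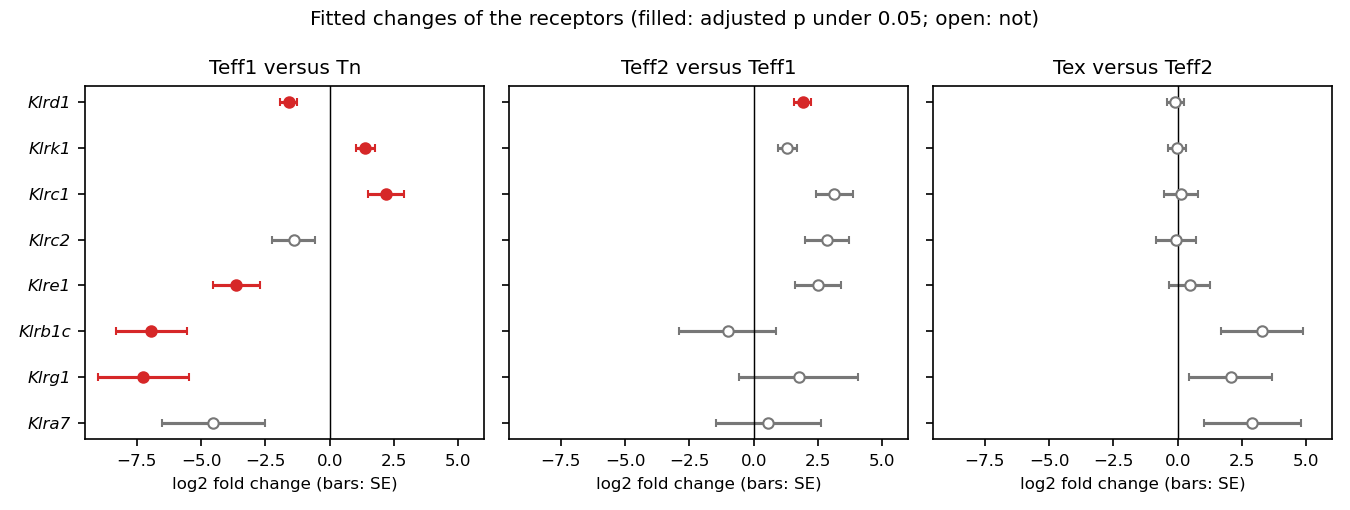
Points show log2 fold changes of the 8 receptors with bars of 1 SE in 3 successive comparisons; filled points passed an adjusted p under 0.05. In Teff1 versus Tn 6 points are filled, in Teff2 versus Teff1 only Klrd1, and in Tex versus Teff2 none.

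Klra7, the inhibitory receptor Ly49G, had 118, 3 and 240 counts in Tn, 18, 0 and 0 in Teff1, 24, 0 and 1 in Teff2 and 178, 3 and 1 in Tex. It was high in 2 Tn libraries and in Tex replicate 1, and replicate 1 was the highest library of each later state. No comparison of Klra7 was called in the edgeR fit of all 12 libraries by state, with log2 fold changes against Tn of -4.53 in Teff1 (SE 2.01, edgeR adjusted p = 0.081), -3.97 in Teff2 (SE 1.94, edgeR adjusted p = 0.111) and -1.07 in Tex (SE 1.68, edgeR adjusted p = 0.612). Klra7 was called lower with a replicate block in Teff1 (-5.87, edgeR adjusted p = 0.00564) and Teff2 (-5.33, 0.00787), and in Teff1 with only the 6 libraries compared (-4.49, 0.034). Without replicate 1 of Teff1, Teff2 and Tex the 3 values were -9.88, -7.51 and -5.85 and all were called lower (edgeR adjusted p = 0.00582, 0.00786 and 0.0107). The first of these is set against Teff1 libraries at 0 counts, so it depends on the prior count of the fit and is no measured fold. With Tn replicate 2 alone they were 0.50, 1.07 and 3.96 and none was called (edgeR adjusted p = 0.927, 0.84 and 0.409).

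Tex replicate 1 held some Ly49 transcripts and few or none of others. It had 178 Klra7, 41 Klra3, 30 Klra6, 20 Klra1 and 69 Klra13-ps counts, against 118, 44, 36, 27 and 295 in Tn replicate 1. In contrast it had 1 Klra8 and 3 Klra4 counts, where Tn replicate 1 had 127 and 100 and Tn replicate 3 had 383 and 265. Ncr1 had 11 counts in Tex replicate 1 and 186 and 574 in those Tn libraries, and Klrb1c had 24 against 235 and 538. In CPM, Klra7, Klra3, Klra6 and Klra1 stood at 9.78, 2.25, 1.65 and 1.10 in Tex replicate 1. Their levels were 7.82, 2.92, 2.39 and 1.79 CPM in Tn replicate 1 and 12.9, 4.35, 2.74 and 3.12 CPM in Tn replicate 3. Klra13-ps was further below Tn replicate 1 (3.79 against 19.6 CPM). So were Klra8 (0.0549 against 8.42), Klra4 (0.165 against 6.63) and the NK cell-defining Ncr1 (0.604 against 12.3). In Tex replicates 2 and 3, Klra7 had 3 and 1 counts and Klra3 had 3 and 10. The Ly49 genes are close copies, and their separate counts are uncertain for the reason given for Klrc2.

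**Figure D5:**
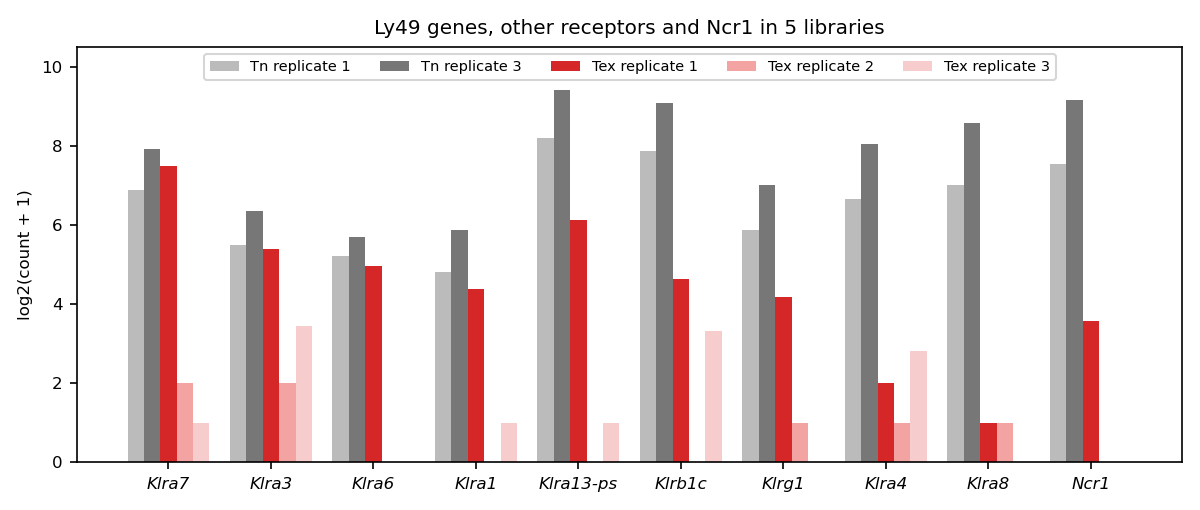
Bars show log2(count + 1) of 7 Ly49 genes (symbols starting with Klra), Klrb1c, Klrg1 and Ncr1 in Tn replicates 1 and 3 and in the 3 Tex libraries. Tex replicate 1 has 178 Klra7 counts beside 1 Klra8 and 11 Ncr1 counts, and the other Tex libraries have at most 10 of any of these genes.

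Sorting by TIM-3 at day 5 gave no difference past the threshold in any of the 8 receptors. None was called between Tex and Teff2 by edgeR's quasi-likelihood test (background 0.00698% of genes, 0.00698% higher and 0% lower). In that fit none had an unadjusted p under 0.05, and DESeq2 called none. In edgeR with a replicate block or without the filter on low counts, 1 receptor had an unadjusted p under 0.05. The same held without Teff2 replicate 1 or without Tex replicate 2. No receptor was called in any of these fits. The libraries of Tex and Teff2 overlapped for every receptor, where 2.46% of tested genes were above and 2.35% below without overlap. The log2 differences, Tex over Teff2, were -0.09 for Klrd1 (SE 0.33), -0.02 for Klrk1 (SE 0.36), 0.12 for Klrc1 (SE 0.66), -0.05 for Klrc2 (SE 0.78) and 0.46 for Klre1 (SE 0.80). For the low receptors the errors were wide, at 2.06 for Klrg1 (SE 1.61), 3.27 for Klrb1c (SE 1.59) and 2.90 for Klra7 (SE 1.89). The Klra7 value rests on Tex replicate 1 and was -1.98 without it, and the Klrg1 value was -1.26 without it. Day 5 libraries of equal replicate number were taken as pairs, a pairing that comes from these data and not from the labels. A fit within pairs on those 6 libraries was also made. It tested 5 receptors and called none, with a smallest edgeR adjusted p of 0.389. Of all 13096 genes tested in that fit, 126 were called higher and 95 lower in Tex.

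Among the 22 other killer lectin genes in the table, 10 passed the filter. Some that failed it were high only in Tn replicates 1 and 3. Examples are Klra8 (127, 1 and 383 counts in Tn), Klra4 (100, 6 and 265) and Klrb1b (87, 3 and 90). Calls and medians below leave such genes out, so they depend on the filter. Of the 10 tested genes, 4 were called lower and 0 higher in Teff1 against Tn. In Teff2 1 was higher and 2 lower, and in Tex 2 were higher and 1 lower. Of all tested genes, 24.5% were called higher and 24.5% lower in Teff1, 25.6% and 23.3% in Teff2, 27.3% and 25.6% in Tex. The median log2 fold changes of the 10 killer lectin genes were -2.58, -1.46 and -0.36, where those of all tested genes were -0.06, 0.00 and 0.00. The fits with Tn replicate 2 as the only Tn library called smaller shares of all tested genes. No fall among these killer lectin genes was called in them. Klra5, the Ly49E gene, was called higher at day 5 both ways. It had 4, 1 and 6 counts in Tn, 2, 2 and 3 in Teff1, 23, 5 and 32 in Teff2 and 56, 44 and 67 in Tex. All Tex libraries lay above all Teff2 libraries in CPM, and Teff2 replicate 2 (0.323 CPM) was level with Tn replicate 3 (0.322 CPM). Klra5 was 13.6-fold higher in Tex than in Tn (log2 fold change 3.70, SE 0.66, edgeR adjusted p = 0.000691) and 24-fold higher than in Teff1 (4.54, SE 0.69, edgeR adjusted p = 0.00671). Against Teff2 the log2 difference was 1.46 (SE 0.56, edgeR adjusted p = 1).

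Of 21 listed ligand genes 16 were found and 10 tested. Against Tn, 0 were higher and 6 lower in Teff1, 2 and 2 in Teff2 and 2 and 5 in Tex (medians -1.18, -0.57 and -0.65). The shares of all tested genes were 24.5% higher and 24.5% lower in Teff1, 25.6% and 23.3% in Teff2, 27.3% and 25.6% in Tex. H2-T23, which encodes the Qa-1 molecule bound by the CD94 receptors, had 294, 351 and 409 CPM in Tn, 474 to 551 CPM in Teff2 and 533 to 540 CPM in Tex. H2-T23 was called higher in Teff2 (log2 fold change 0.56, SE 0.18, edgeR adjusted p = 0.0214) and Tex (0.61, SE 0.18, edgeR adjusted p = 0.0129). Ulbp1, a ligand of NKG2D, rose from 8.44 to 12.1 CPM in Tn to 18.4 to 63.3 CPM in Tex (1.85, SE 0.53, edgeR adjusted p = 0.0114), while H60b, another such ligand, fell by 5.33 (SE 0.92, edgeR adjusted p = 0.000595). Cdh1, the E-cadherin bound by KLRG1, had 29 to 52 counts in Tn and 0 to 2 in each later library. No ligand was called higher with Tn replicate 2 alone, and Cdh1 and H60b were those called lower at day 5.

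In the comparisons with Tn, 24.5% of all tested genes were called higher and 24.5% lower in Teff1. In Teff2 these shares were 25.6% and 23.3%, and in Tex 27.3% and 25.6%. The 24 adaptor and signalling genes were all tested. Against Tn, 2 of them were higher and 15 lower in Teff1, 2 and 15 in Teff2, and 1 and 14 in Tex. Their medians were -0.69, -0.70 and -0.77. Fewer of the falls were called with Tn replicate 2 alone, where smaller shares of all tested genes were called lower too. Tyrobp, which encodes the adaptor DAP12 of activating killer lectin receptors, had 20.9, 4.36 and 29.3 CPM in Tn and at most 0.604 CPM in any later library (log2 fold change in Teff1 -6.43, SE 1.05, edgeR adjusted p = 0.000501). Syk, a kinase downstream of DAP12, had 130, 11.5 and 158 CPM in Tn and at most 1.09 CPM later (Teff1 -7.79, SE 1.20, edgeR adjusted p = 0.000352). Both were lowest of the Tn libraries in replicate 2, and both were still called lower in all 3 comparisons with it alone. In the same libraries B cell markers went from 432, 36.6 and 842 CPM in Tn to 5.56 to 10.1 CPM later, and macrophage and monocyte markers from 242, 57.3 and 122 CPM to 4.66 to 11.6 CPM, and their part in these falls was not tested.

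Of 14 transcription factors of lymphocyte differentiation 13 were tested. Against Tn, 2 were higher and 6 lower in Teff1, 2 and 4 in Teff2 and 3 and 5 in Tex (medians -1.17, -0.83 and -0.25). The shares of all tested genes were 24.5% higher and 24.5% lower in Teff1, 25.6% and 23.3% in Teff2, 27.3% and 25.6% in Tex. Tbx21 (T-bet), which is also in the memory-phenotype marker list, rose by 2.45, 2.59 and 2.53 on the log2 scale (edgeR adjusted p = 0.00273, 0.002 and 0.002) and Nfil3 by 2.55, 2.62 and 3.25 (0.00965, 0.00842 and 0.00251). Tcf7 (TCF-1) fell by 2.33, 2.57 and 3.21 (0.00227, 0.00132 and 0.000328), and Ets1 by 1.49, 2.01 and 2.29 (1.73e-05, 3.04e-06 and 1.1e-06). These 4 genes were called in the same direction with Tn replicate 2 alone. Among 30 genes of the chromosome 6 stretch that are not killer lectins, 13 were tested. Against Tn, 1 was higher and 6 lower in Teff1, 2 and 3 in Teff2, and 2 and 5 in Tex (medians -1.87, -0.76 and -0.68). The shares of all tested genes given above are those of these comparisons too. Gabarapl1, an autophagy gene near the receptors, rose against Tn in all 3 states (log2 fold change 3.09, 3.82 and 3.98, edgeR adjusted p = 1.39e-05, 4.16e-06 and 2.74e-06).

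Across the 12 libraries, on log2(CPM + 0.5), correlations linked some receptors without dividing them into separate sets. These are descriptions over libraries that share 4 states, the low Tn replicate 2 and depth. Klrg1 and Klrb1c had r = 0.96, Klrg1 and Klra7 0.90, and Klrb1c and Klra7 0.82. Klrk1 and Klrc1 had r = 0.91, Klrc1 and Klrc2 0.83, and Klrc2 and Klre1 0.81. Between these and the first receptors, Klrg1 and Klre1 had r = 0.69. Klrk1 and Klrc2 had r = 0.65. Klrd1 had r of 0.22 to 0.59 with the other 7, and Klrk1 and Klrb1c had -0.68. The genes most like each receptor in pattern, 3 per receptor by Pearson r, were as follows. For Klrg1 they were Klra13-ps (0.987), Ncr1 (0.982) and Csf2rb (0.978), and for Klrb1c Fes (0.990), Pxdc1 (0.987) and Cd163l1 (0.981). For Klra7 they were Klra6 (0.971), Shank1 (0.967) and Klra1 (0.964). Klrd1 was most like Ntrk3 (0.968), Zfp715 (0.924) and Acsbg1 (0.918). Klrk1 was most like Fuca2 (0.986), Cd80 (0.977) and Ergic3 (0.976), and Klrc1 like Sema4c (0.984), Ell2 (0.974) and Ccdc112 (0.970). Klrc2 was most like Fgl2 (0.962), Klri2 (0.955) and Klrc3 (0.946), and Klre1 like Lat2 (0.922), Myo1e (0.918) and Ceacam1 (0.915). Of the NK cell markers listed, Ncr1 was thus among the 3 closest genes for Klrg1, and none was among the 3 for the other 7 receptors. A marker outside these 3 may still have a high r. Cd163l1, among the 3 for Klrb1c, is in the list of gamma delta and innate-like T cell markers.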

How the data were processed

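The authors deposited a matrix of raw counts, whole numbers of reads per gene symbol, for 12 RNA-seq libraries. The submitters' processing notes name mm10, HISAT2, HTSeq and DESeq2 (and BWA and Juicer) with no version. Strandedness, annotation and the handling of reads with several matches are not given in the sources used here. A matrix of normalized values and the 4 Hi-C samples were not used here.

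Of 34573 symbols 11535 had no count in any library. Counts were tested with edgeR 4.0.16 (R 4.3.3), using TMM factors, filterByExpr (14332 genes kept), a quasi-likelihood fit by group of all 12 libraries, 6 comparisons and Benjamini-Hochberg adjustment over all tested genes, called under 0.05. SE is the absolute log2 fold change over the square root of F. The fit was tested on simulated data. Alternatives were DESeq2 1.42.0, RLE and upper-quartile factors, no filter, a replicate block, fits of only the libraries compared, and libraries left out. Counting intervals use 95% confidence and cover counting error only.

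The receptors, gene lists and tests were chosen with earlier results of these data known. The lists held markers of NK, memory-phenotype, gamma delta, B, macrophage and CD8 T cells, ligands, adaptors, transcription factors, chromosomal neighbours, and the other killer lectin genes (symbols starting with Klr, except Klraq1, which is no lectin gene). Gamma delta and innate-like T cell markers (5 of 7 found) summed to 21.7, 8.51 and 25.4 CPM in Tn and 1.09 to 7.8 CPM later. Named list genes were called, reached 2 CPM in the higher group and had the largest changes, at most 4 per list and comparison. Genes most like a receptor were the 3 with the highest r, predicted genes left out. Klrc3, Klri2, the Ly49 genes beside Klra7 and single markers were named after their values were seen. The list results with Tn replicate 2 alone were added then.

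Pairing by replicate number was checked on deviations from the group means, correlated over genes. Equal numbers of Tex and Teff2 gave r = 0.85, 0.78 and 0.75, so those libraries were taken as pairs, a pairing that comes from the data and not from the labels. No other comparison had all 3 values above 0.1.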

Additional observations from a re-analysis of the deposited data

How the results depend on the processing

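The number of receptors called changed by over 1.5 times in 3 of the 6 comparisons. It was 3 instead of 6 for Teff1 against Tn when Tn replicates 1 and 3 were left out. For Teff2 against Teff1 it was 1, and it became 3 in DESeq2, 3 with a replicate block, 2 without the filter on low counts, 2 with only the 6 libraries compared (Klrc1 and Klrc2, with Klrd1 lost), and 0 to 1 when 1 library was left out. For Tex against Teff1 it was 2, and it became 4 in DESeq2 and 0 to 1 when 1 library was left out. Among all genes, the higher and lower calls for Teff2 against Teff1 were 80 and 16, against 371 and 126 in DESeq2 and 261 and 52 with the block. For Tex against Teff1 they were 309 and 122, against 671 and 376 in DESeq2 and 557 and 246 with the block. The block changed no other count of receptors by that much, but it also called Klra7 lower in Teff1 (-5.87) and Teff2 (-5.33) against Tn and Klrk1 higher in Tex against Teff1 (1.30). Upper-quartile factors moved the median log2 fold change of all genes for Teff1 against Tn from -0.06 to -0.20, and changed no receptor's direction.

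Without Tn replicates 1 and 3, log2 fold changes against Tn turned sign for Klrc2 (3.65) and Klre1 (0.86) in Teff1, Klre1 in Teff2 (3.36), Klre1 (3.81) and Klrg1 (1.20) in Tex, and Klra7 in all 3 (0.50, 1.07 and 3.96). Klre1 in Tex against Tn ran from -1.26 to 0.33 with 1 library left out. The other turns of sign were in comparisons of a receptor that no setting called. With 1 library left out, Teff2 against Teff1 ran from -1.84 to 0.87 for Klrb1c and from -3.07 to 5.99 for Klra7. Klra7 in Tex against Teff1 ran from -1.42 to 8.89. Tex against Teff2 ran from -1.26 to 2.64 for Klrg1, -0.27 to 0.00 for Klrd1, -0.31 to 0.36 for Klrk1, -0.19 to 0.63 for Klrc1, -0.31 to 0.55 for Klrc2 and -1.98 to 6.53 for Klra7. Without replicate 1 of Teff1, Teff2 and Tex, Klrb1c in Teff2 against Teff1 was 0.95, and Tex against Teff2 was -0.94 for Klrg1 and -0.15 for Klrc1. With the replicate block Tex against Teff2 was 0.05 for Klrk1 and 0.01 for Klrc2, and in the paired fit of the day 5 libraries 0.06 and 0.05. The causes were not tested.

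Of the alternative values of single receptors, 563 kept their direction and side of the threshold, 24 passed it newly, 24 no longer passed it and 31 turned sign. Receptors with few counts (Klrg1, Klrb1c and Klra7 after activation) are limited by depth. Groups of 3 libraries were too small for a check of single outlying samples.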
